A study of Mus musculus with 12 samples.

Results

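The proteasome subunit genes of mouse liver were examined across 4 groups of livers that differed in the clock gene *Rev-erbα* and in the time of day. Members were all gene symbols of the forms Psma, Psmb, Psmc, Psmd and Psme followed by a number that had 10 or more reads in at least 3 of the 12 samples. This rule kept 42 of 43 matching symbols, out of 38926 symbols in all, and set apart 15 core genes, 3 immunoproteasome genes and 24 regulatory genes. At the threshold, *Psma8*, an alpha subunit known from testis, was just inside with 3 to 25 reads per sample and 11 samples at 10 reads or more, and *Psmb11*, the thymus-specific catalytic subunit, was outside with 0 reads in all 12 samples. The other 41 members had 10 reads or more in every sample.

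The samples were livers of 12-week-old male mice of a mixed 129Ola/C57BL6 background, kept in a light-dark cycle. Of the 12 libraries, 3 came from wild-type (WT) mice at zeitgeber time (ZT) 8, in the light phase, 3 from *Rev-erbα-/-* mice at ZT8, 3 from WT mice at ZT20, in the dark phase, and 3 from *Rev-erbα-/-* mice at ZT20. The knockout mice lack REV-ERBα, a nuclear receptor that represses genes of the circadian clock and of metabolism, in all tissues. The labels name 3 replicates a group and do not state how many mice each stands for, so that p-values measure the spread between these samples.

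The proteasome is the protease that degrades ubiquitin-tagged proteins in the cytoplasm and nucleus. Its core particle is a barrel of outer alpha rings and inner beta rings, and 3 beta subunits carry the active sites. Regulatory particles dock at its ends: ATPases unfold the substrate, non-ATPases receive and remove the ubiquitin chains, and separate activators open the barrel without ATP. In cells exposed to interferon, the beta subunits encoded by *Psmb8*, *Psmb9* and *Psmb10* take the places of the catalytic subunits encoded by *Psmb5*, *Psmb6* and *Psmb7*, which changes the peptides made for presentation on MHC class I.

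The promoters of the 3 immunoproteasome genes and of *Psmb5* are shown because the results below turn on these genes. *Psmb9* (chr17:34181987-34187764, minus strand) lies head to head with the peptide transporter gene *Tap1*, and *Psmb8* (chr17:34197721-34201454, plus strand) lies between *Tap1* and *Tap2* in the MHC region. *Psmb10* lies at chr8:105935735-105938444 and *Psmb5* at chr14:54614119-54618022, both on the minus strand (GENCODE M21, GRCm38). The 250 bases before each RefSeq start site (GRCm38.p6) are printed 5′ to 3′ on the strand of the gene, and capitals mark matches to the searched motifs. The RefSeq start sites lie inside the GENCODE spans, which also hold transcripts that begin earlier. The windows cover chr17:34197945-34198194 for *Psmb8*, chr17:34187331-34187580 for *Psmb9*, chr8:105938393-105938642 for *Psmb10* and chr14:54617996-54618245 for *Psmb5*.
Psmb8: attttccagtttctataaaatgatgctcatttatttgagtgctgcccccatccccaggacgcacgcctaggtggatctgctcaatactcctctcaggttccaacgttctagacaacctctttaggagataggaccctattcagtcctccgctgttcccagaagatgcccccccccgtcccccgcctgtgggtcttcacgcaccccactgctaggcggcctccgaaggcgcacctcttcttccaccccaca
Psmb9: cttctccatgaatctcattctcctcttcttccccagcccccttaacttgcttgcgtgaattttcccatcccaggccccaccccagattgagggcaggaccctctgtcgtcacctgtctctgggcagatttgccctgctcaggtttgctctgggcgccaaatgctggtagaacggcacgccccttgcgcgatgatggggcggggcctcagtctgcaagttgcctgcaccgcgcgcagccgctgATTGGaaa
Psmb10: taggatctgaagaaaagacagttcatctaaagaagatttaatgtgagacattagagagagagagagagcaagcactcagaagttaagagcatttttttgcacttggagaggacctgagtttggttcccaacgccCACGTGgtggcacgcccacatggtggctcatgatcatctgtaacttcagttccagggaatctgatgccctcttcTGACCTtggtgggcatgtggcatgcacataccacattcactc
Psmb5: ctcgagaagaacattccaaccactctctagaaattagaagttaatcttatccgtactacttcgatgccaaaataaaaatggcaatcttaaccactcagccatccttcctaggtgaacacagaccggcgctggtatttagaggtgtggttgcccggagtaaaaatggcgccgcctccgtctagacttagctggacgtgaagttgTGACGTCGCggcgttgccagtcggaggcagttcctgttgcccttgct

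The motifs were searched on both strands in windows of 300 bases (250 before to 50 after the start site), which 35 of the 42 members had, in 38 windows. *Psmb5* held TGACGTCGC, a match to the antioxidant response element core TGACNNNGC, which begins 47 bases before the start site. *Psmb9* held the CCAAT box on the opposite strand 8 bases before its start site. *Psmb10* held the E-box CACGTG at 116 bases and the nuclear receptor motif AGGTCA, on the opposite strand, at 42 bases before its start site. None of the searched letters were in the *Psmb8* window, and the interferon response element was in none of the windows of the 3 immunoproteasome genes. Over all members, TGACNNNGC was in 15.8% of 38 windows and in 12.4% of all 32851 RefSeq windows, CCAAT in 34.2% and 37.4%, CACGTG in 10.5% and 7.15%, AGGTCA in 26.3% and 16.3%, and the interferon response element in 10.5% and 3.44%. These matches describe letters in a window and were not compared with binding data.

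Between 17641809 and 26060192 reads per library were counted on genes, and the members took 0.277% to 0.311% of them. Values are CPM, the count of a gene relative to the TMM-scaled total of its library, and a count of 3 reads corresponds to 0.115 to 0.170 CPM. *Nr1d1*, which encodes REV-ERBα, was read at 75.3 to 129 CPM in WT and 63.0 to 80.6 CPM in *Rev-erbα-/-* livers at ZT8, and at 1.86 to 2.28 and 2.09 to 3.57 CPM at ZT20. A count per gene symbol does not show which exons the reads cover, so it did not check the deletion. *Arntl* (*Bmal1*), a clock gene repressed by REV-ERBα, was at 0.448 to 0.796 CPM in WT and 22.7 to 25.7 CPM in *Rev-erbα-/-* livers at ZT8. Hepatocyte markers were abundant in every library, with *Albumin* (*Alb*) at 33800 CPM or more. The WT ZT8 replicates 2 and 3 stood apart from the other libraries: *Saa1*, an acute-phase gene, was at 4970 and 6490 CPM there and at 21.2 to 96.8 CPM in the other 10 libraries. The comparisons that use WT at ZT8 rest in part on these livers, and their results are therefore given with and without them where stated. This alternative was chosen after seeing the data. In it, WT ZT8 is left with 1 sample that is assumed to vary like the other groups.

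Most proteasome genes varied little between the livers of a group. Within groups, the coefficient of variation, averaged over the 4 groups, had a median of 6.26% over the 42 members and of 10.0% over all 14488 tested genes, at a median level of 74.0 and 13.2 CPM. It was lowest for *Psme3* at 1.66% and highest for the sparse *Psma8* at 38.6%. Summed over genes, the core class lay between 871.7 and 987.2 CPM and the regulatory class between 1764 and 2073 CPM in the 12 livers, so that the highest library exceeded the lowest 1.13-fold and 1.18-fold. The immunoproteasome sum spanned a wider range, from 39.1 CPM in a WT liver at ZT20 to 72.0 CPM in WT ZT8 replicate 2, or 1.84-fold. The WT ZT8 replicates 2 and 3 (72.0 and 69.4 CPM) were highest, and the next was a *Rev-erbα-/-* liver at ZT8 (64.4 CPM).

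**Figure D1:**
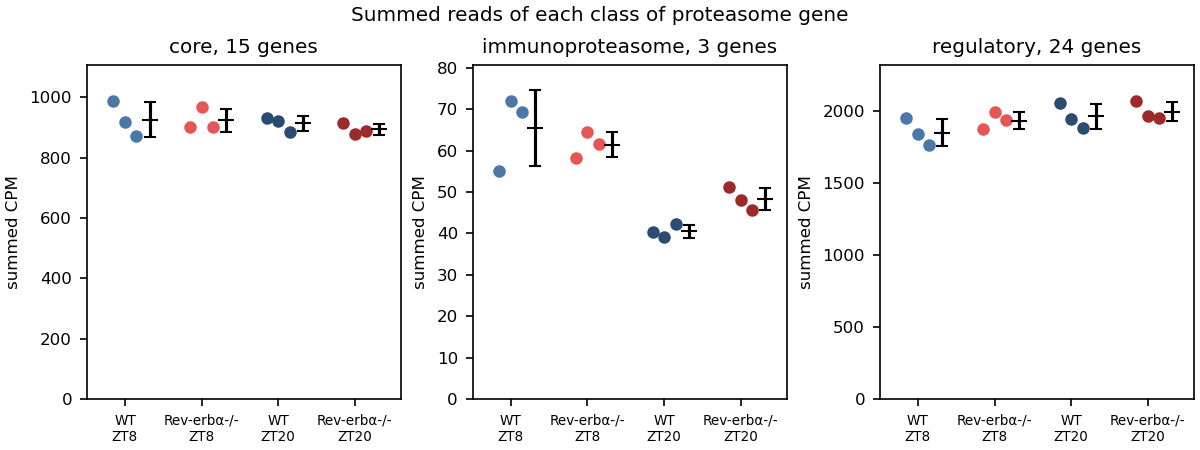
Summed CPM of the core, immunoproteasome and regulatory genes in each of the 12 livers, by group. Points are single livers and the black mark gives mean ± SD of 3. The core sums overlap between all groups and the regulatory sums between all but WT at ZT8 (1764 to 1954 CPM) and *Rev-erbα-/-* at ZT20 (1957 to 2073 CPM), while the immunoproteasome sums of both ZT20 groups (39.1 to 51.2 CPM) lie under those of both ZT8 groups (55.1 to 72.0 CPM).

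To compare levels between genes, CPM was divided by the length of the annotated exons in kilobases. Among the core genes, *Psmb6*, the caspase-like catalytic subunit, had the highest level per length at 115 CPM per kb, followed by *Psmb4* at 97.1, *Psmb7* at 83.6 and *Psma6* at 79.8 CPM per kb. The ranges over 12 livers of *Psmb6* (107 to 121) and *Psmb4* (87.5 to 104) did not meet, whereas those of *Psmb4*, *Psmb7* (78.1 to 96.2) and *Psma6* (71.8 to 89.9) overlapped with their neighbours. The 6 regulatory ATPases, which form a single ring with 1 copy of each, lay close together between 39.7 CPM per kb for *Psmc6* and 60.7 CPM per kb for *Psmc4*. The immunoproteasome genes were low in liver, with 17.3 CPM per kb for *Psmb10*, 11.3 for *Psmb8* and 9.59 for *Psmb9*, against medians of 56.8 CPM per kb for the core genes and 40.2 for the regulatory genes. *Psmd10*, a chaperone of base assembly, and *Psma3* were both at 6.44 CPM per kb, and *Psma8* was last at 0.413. The length used is the union of all annotated exons, which was 2846 bases for *Psma3*, 3427 for *Psmb1* and 798 for *Psmb6*. *Psmb1* was thus at 30.6 CPM per kb with a mean of 105 CPM, and *Psmb6* at 115 with a mean of 92 CPM. Which exons the liver transcripts hold was not tested, so the order of genes depends in part on the annotation.

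Several of the low levels belong to genes whose annotated transcripts share sequence with another gene. Because the authors counted only uniquely mapped reads of up to 75 bases, every 75-base word of the annotated transcripts was looked up in the transcripts of all other genes. No word was shared for 22 of the 42 members, and under 20% of the words for 38 members. The remaining 4 were *Psmb5* with 36.8% of its words in other genes, *Psma5* with 35.2%, *Psmd9* with 24.3% and *Psme2* with 22.9%, and these 4 lay between 8.71 and 16.1 CPM per kb. *Psme2*, a subunit of the activator PA28 together with *Psme1*, shares its words with the intronless copy *Psme2b* (chr11:48945354-48946190), for which 60.2% of the words are shared. *Psme2* was read at 8.71 CPM per kb, *Psme2b* at 69.1 and *Psme1* at 52.9 CPM per kb, so levels of *Psme2* and *Psme2b* are uncertain. Reads whose sequence lies at several places in the genome were left out by the unique mapping. All 1777 shared words of *Psmd9* were shared with *Gm26745*, whose annotated exons overlap those of *Psmd9*. Reads from that overlap can have a single placement, so unique mapping need not leave them out. The part of shared words in the levels of the 4 genes was not tested.

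**Figure D2:**
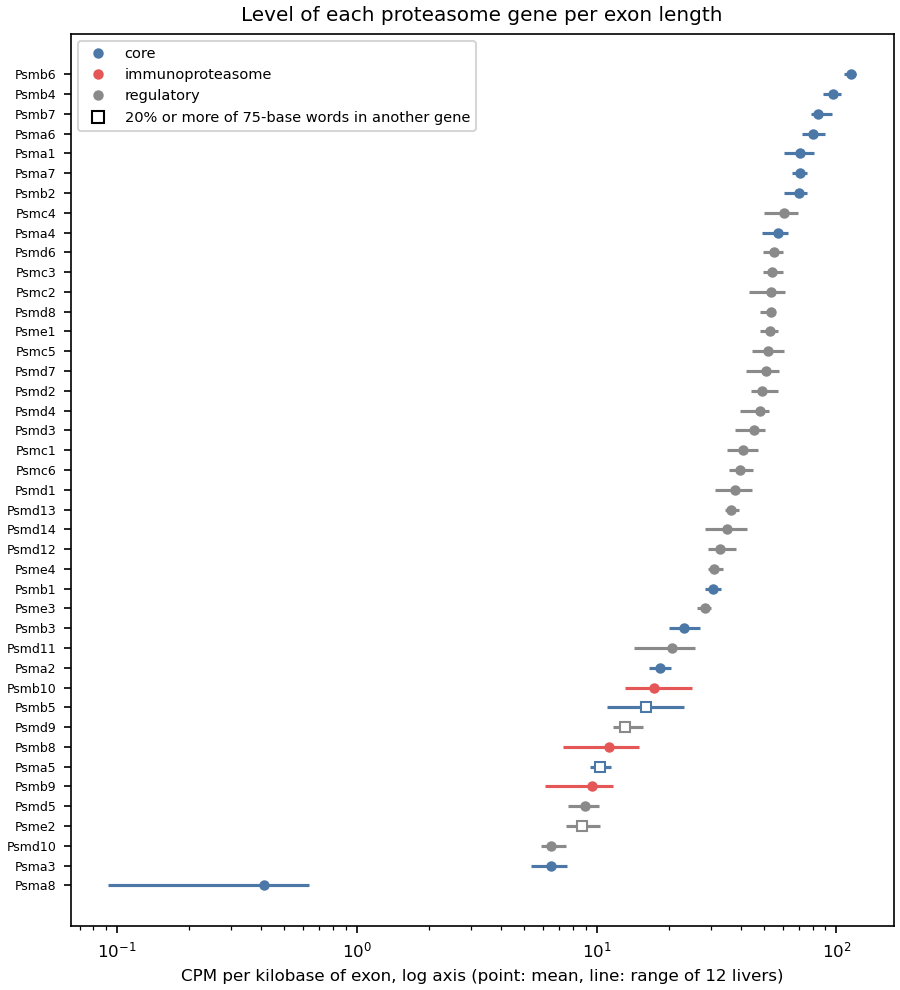
Level of each of the 42 proteasome genes as CPM per kilobase of exon (log axis). The length is the union of all annotated exons, so the order of genes depends in part on the annotation. Points are means and lines the range of 12 livers, coloured by class, and open squares mark the 4 genes with 20% or more of their 75-base words in another gene. *Psmb6* is highest at 115 and *Psma8* lowest at 0.413, and the immunoproteasome genes (red) lie between 9.59 and 17.3.

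The first comparison asked whether loss of REV-ERBα changed proteasome genes in the light phase. At ZT8, 1 of the 42 members passed the threshold (edgeR quasi-likelihood test, adjusted p under 0.05 after Benjamini-Hochberg adjustment over all tested genes), while 8.45% of the 14488 genes tested did, 4.4% higher and 4.04% lower. That gene was *Psmd11*, a non-ATPase scaffold subunit of the regulatory particle (chr11:80428615-80473248). *Psmd11* was at 53.6, 45.1 and 42.4 CPM in WT and at 58.9, 58.3 and 54.7 CPM in *Rev-erbα-/-* livers. The lowest knockout liver lay just above the highest WT liver, and the fold change was 1.22 (log2 0.28, SE 0.0832, adjusted p = 0.0465, edgeR). Without the WT replicates 2 and 3, the log2 difference was 0.09 (adjusted p = 0.768) and none of the 42 members passed, against 2.29% of 15077 genes tested in that fit. The call was lost in 12 of 20 other alternative analyses, with adjusted p-values up to 0.18. Among these were the fits without WT ZT8 replicate 2 or 3, *Rev-erbα-/-* ZT8 replicate 1 or 2, any of the WT ZT20 replicates, or *Rev-erbα-/-* ZT20 replicate 2 or 3 (log2 0.21 to 0.29).

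In the fit of all libraries, the ZT8 data limited the size of a genotype difference for nearly all members. The 95% interval of the fold change lay within 1.5-fold in either direction for 41 of the 42 members. Among them were all 24 regulatory and all 3 immunoproteasome genes, and the exception was *Psma8* (log2 interval -1.63 to 0.31). Intervals were not computed without the WT replicates 2 and 3, so this count holds for the fit of all libraries only. Over the 42 members the median log2 difference was 0.01, as against 0.00 over all tested genes, with 23 members above and 19 below zero, and without the WT replicates 2 and 3 the median was -0.06, with 11 above and 31 below. The 6 ATPases had values from 0.00 to 0.12 with all libraries and from -0.10 to -0.01 without these replicates, so that their shared sign turned, and none passed in either fit. *Psmb8* had a log2 difference of 0.02 (SE 0.121) with all libraries and of 0.32 (SE 0.145, adjusted p = 0.351) without them. *Psmb10* was at 23.8, 32.7 and 31.0 CPM in WT and at 23.9, 24.8 and 23.6 CPM in *Rev-erbα-/-* livers (log2 -0.27, SE 0.103, adjusted p = 0.119, edgeR). The high values of *Psmb10* were those of the WT replicates 2 and 3, and without them its log2 difference was 0.01 (adjusted p = 0.979). Without WT ZT8 replicate 1 instead, *Psmb10* passed as lower (log2 -0.41, adjusted p = 0.00619) and *Psmb5* as higher (log2 0.41, adjusted p = 0.0477). *Psmd9*, a chaperone of base assembly, and *Psmb3*, a beta subunit without an active site, had log2 differences of -0.19 (adjusted p = 0.11) and -0.18 (adjusted p = 0.293), and the *Psmd9* values of the knockout (31.5, 34.8 and 36.6 CPM) lay under those of WT (37.8, 39.1 and 40.6 CPM).

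At ZT20, 2 of the 42 members passed the threshold, 1 in each direction, against 3.63% of all genes tested, 2.09% higher and 1.54% lower. *Psmb5*, which encodes the chymotrypsin-like catalytic subunit, was lower in *Rev-erbα-/-* livers. Its values were 20.9, 17.9 and 20.4 CPM in WT and 12.0, 11.3 and 10.0 CPM in *Rev-erbα-/-* livers, without overlap. This was a decrease to 0.563-fold (log2 -0.83, SE 0.135, adjusted p = 0.00208, edgeR), and it passed in all 20 alternative analyses (log2 -0.90 to -0.76). *Psmb9*, an immunoproteasome catalytic subunit, was higher, at 8.28, 10.0 and 9.66 CPM in WT and 15.8, 13.0 and 12.1 CPM in *Rev-erbα-/-* livers. The groups did not overlap and the fold change was 1.46 (log2 0.55, SE 0.114, adjusted p = 0.0131, edgeR). Leaving out WT ZT20 replicate 1 or *Rev-erbα-/-* ZT20 replicate 1 cost *Psmb9* its call, with log2 differences of 0.47 (adjusted p = 0.0694) and 0.43 (adjusted p = 0.0597).

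The other immunoproteasome genes did not pass at ZT20. *Psmb8* was at 13.0, 11.9 and 13.2 CPM in WT and 17.1, 16.9 and 14.0 CPM in *Rev-erbα-/-* livers, which did not overlap, with a log2 difference of 0.34 (SE 0.124, adjusted p = 0.186, edgeR). *Psmb10* was nearly equal, at 19.0, 17.2 and 19.4 CPM in WT and 18.3, 18.0 and 19.7 CPM in *Rev-erbα-/-* livers, and the 95% interval of its log2 difference ran from -0.21 to 0.24. Non-overlapping genotypes were found for 7 members at ZT20, 4 higher and 3 lower in the knockout, where 22.5% of all genes tested did not overlap (11.2% higher, 11.3% lower). At ZT8 they were found for 6 members, 4 higher and 2 lower, against 25.6% of all genes (13.2% higher, 12.3% lower). *Psmc1*, an ATPase, was at 69.9, 74.9 and 66.3 CPM in WT and 61.7, 55.5 and 60.9 CPM in *Rev-erbα-/-* livers (log2 -0.25, SE 0.0717, adjusted p = 0.0814, edgeR). Of 20 alternative analyses it passed in that with DESeq2 (adjusted p = 0.0494). The proteasome activator *Psme4* (log2 0.13, adjusted p = 0.402) and *Psma6* (log2 -0.10, adjusted p = 0.666) had the next smallest adjusted p-values in their classes.

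**Figure D3:**
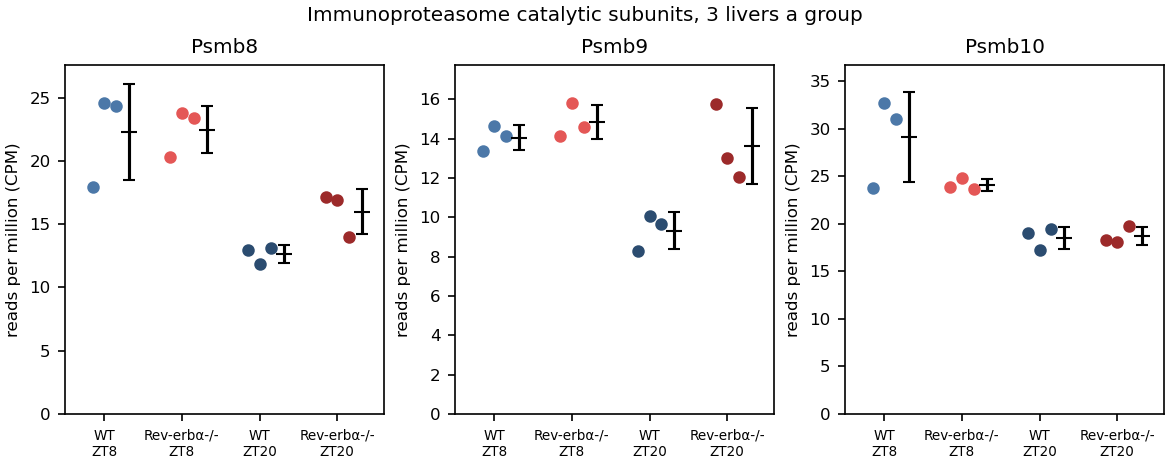
CPM of *Psmb8*, *Psmb9* and *Psmb10* in each of the 12 livers, with mean ± SD of 3 in black. All 3 genes are lower at ZT20 than at ZT8 in WT without overlap, and at ZT20 the *Psmb9* values of *Rev-erbα-/-* livers (12.1 to 15.8 CPM) lie above those of WT (8.28 to 10.0 CPM).

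The test of the interaction, that is the genotype effect at ZT8 minus that at ZT20, was passed by 1 of the 42 members, *Psmb5*, against 5.88% of all genes tested, 3.05% higher and 2.83% lower. At ZT8 *Psmb5* was at 15.4, 11.9 and 10.1 CPM in WT and 13.3, 14.3 and 16.1 CPM in *Rev-erbα-/-* livers, which overlapped (log2 0.22, SE 0.137, adjusted p = 0.354, edgeR). Together with the lower values of the knockout at ZT20, this gave a log2 difference between the effects of 1.05 (SE 0.192, adjusted p = 0.0041, edgeR), with a 95% interval of 0.64 to 1.46. Without the WT ZT8 replicates 2 and 3 it was 0.74 (adjusted p = 0.0425), and *Psmb5* passed in the 19 other alternative analyses of the interaction. For the next genes the interaction had log2 values of 0.41 for *Psmd11* (adjusted p = 0.0516), -0.46 for *Psmb9* (adjusted p = 0.108) and 0.25 for *Psmc1* (adjusted p = 0.182). It had values of -0.32 for *Psmb8* and -0.29 for *Psmb10* (adjusted p = 0.325 and 0.304). *Psma8* had the largest negative value (log2 -0.77, adjusted p = 0.539), at 3 to 25 reads per library. The *Psmd11* value rested on the WT ZT8 livers: it was 0.51 (adjusted p = 0.0053) without replicate 1 and 0.21 (adjusted p = 0.448) without replicates 2 and 3. *Psmd11* also passed without *Rev-erbα-/-* ZT8 replicate 3 (adjusted p = 0.0475) and with DESeq2 (adjusted p = 0.0348), and *Psmb10* passed without WT ZT8 replicate 1 (log2 -0.42, adjusted p = 0.0358). Without the WT ZT8 replicates 2 and 3, the interaction was -0.02 for *Psmb8* (adjusted p = 0.98) and -0.00282 for *Psmb10* (adjusted p = 0.995).

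In WT livers, the 3 immunoproteasome genes fell together from ZT8 to ZT20. All 3 passed the threshold, and they were 3 of the 9 members that did, 5 higher and 4 lower, while 27.7% of all genes tested passed, 13.8% higher and 13.9% lower. *Psmb8* was at 17.9, 24.6 and 24.4 CPM at ZT8 and at 13.0, 11.9 and 13.2 CPM at ZT20, a decrease to 0.569-fold (log2 -0.81, SE 0.124, adjusted p = 0.00018, edgeR). *Psmb10* went from 23.8, 32.7 and 31.0 to 19.0, 17.2 and 19.4 CPM, or to 0.637-fold (log2 -0.65, SE 0.104, adjusted p = 0.000277). *Psmb9* went from 13.4, 14.7 and 14.1 to 8.28, 10.0 and 9.66 CPM, or to 0.665-fold (log2 -0.59, SE 0.114, adjusted p = 0.00131). Every ZT20 liver lay under every ZT8 liver for each of the 3 genes, and they passed in all 20 alternative analyses. Without the WT ZT8 replicates 2 and 3, the log2 differences were -0.51 for *Psmb8* (adjusted p = 0.033), -0.37 for *Psmb10* (adjusted p = 0.0485) and -0.52 for *Psmb9* (adjusted p = 0.052).

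Of the constitutive genes, *Psmb5* and *Psmd11* changed most between the times in WT. *Psmb5* rose 1.58-fold, from 10.1 to 15.4 CPM at ZT8 to 17.9 to 20.9 CPM at ZT20 (log2 0.66, SE 0.135, adjusted p = 0.00197, edgeR). *Psmd11* rose 1.55-fold, from 42.4 to 53.6 CPM to 72.7, 76.3 and 69.7 CPM (log2 0.63, SE 0.0829, adjusted p = 4.91e-05, edgeR). Smaller increases, named after their values were seen, were those of *Psmc2*, an ATPase (log2 0.29, adjusted p = 0.0177), *Psmd7*, a scaffold of the deubiquitinating lid (log2 0.28, adjusted p = 0.00429), and *Psmd5*, a chaperone of base assembly (log2 0.26, adjusted p = 0.0141). *Psmd9* fell from 37.8, 39.1 and 40.6 CPM to 30.7, 31.3 and 31.3 CPM (log2 -0.33, SE 0.0703, adjusted p = 0.00248, edgeR). Of the annotated exon bases of *Psmd9*, 25.5% overlap those of *Gm26745*, and a read that falls on both genes is counted for neither under union counting without strand. The same share was 14.7% for *Psmb8*, which overlaps *Gm20496*, and 12.1% for *Psmb5*, which overlaps *Mir686*.

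Without the WT ZT8 replicates 2 and 3, 3 of the 42 members passed in WT, *Psmd11* higher (log2 0.44, adjusted p = 0.00981) and *Psmb8* and *Psmb10* lower, against 11.9% of the genes tested in that fit. *Psmb5* then had a log2 difference of 0.35 (adjusted p = 0.156), *Psmd9* of -0.29 (adjusted p = 0.093), *Psmd7* of 0.19 (adjusted p = 0.204), *Psmd5* of 0.17 (adjusted p = 0.332) and *Psmc2* of 0.16 (adjusted p = 0.431). *Psmd5* was lost on leaving out WT ZT8 replicate 2 or 3 or WT ZT20 replicate 2 (adjusted p = 0.0588, 0.0526 and 0.0532), and *Psmc2* without WT ZT8 replicate 2 or 3 or WT ZT20 replicate 1 (adjusted p = 0.0535, 0.0836 and 0.0724). With library size alone in place of TMM, 3 members were higher and 5 lower.

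In *Rev-erbα-/-* livers, 3 of the 42 members passed between ZT8 and ZT20, 1 higher and 2 lower, against 17.5% of all genes tested, 8.79% higher and 8.67% lower. *Psmb8* was at 20.3, 23.8 and 23.4 CPM at ZT8 and 17.1, 16.9 and 14.0 CPM at ZT20, a decrease to 0.712-fold (log2 -0.49, SE 0.122, adjusted p = 0.0119, edgeR). *Psmb10* was at 23.9, 24.8 and 23.6 CPM at ZT8 and 18.3, 18.0 and 19.7 CPM at ZT20, a decrease to 0.776-fold (log2 -0.37, SE 0.105, adjusted p = 0.0249, edgeR). *Psmb9* was at 14.1, 15.8 and 14.6 CPM and then at 15.8, 13.0 and 12.1 CPM, which overlapped (log2 -0.12, 95% interval -0.36 to 0.11). *Psmd5* was at 33.6, 36.4 and 36.7 CPM at ZT8 and 41.9, 39.0 and 44.1 CPM at ZT20, an increase of 1.17-fold (log2 0.23, SE 0.0709, adjusted p = 0.0369, edgeR).

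*Psmd11* was at 58.9, 58.3 and 54.7 CPM at ZT8 and 63.4, 68.7 and 68.2 CPM at ZT20, which did not overlap and did not pass (log2 0.22, SE 0.0825, adjusted p = 0.0802, edgeR).

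The calls in *Rev-erbα-/-* livers lay near the threshold. *Psmb8* was lost without *Rev-erbα-/-* ZT8 replicate 2 (log2 -0.45, adjusted p = 0.0543) or *Rev-erbα-/-* ZT20 replicate 3 (-0.40, adjusted p = 0.0535). *Psmb10* was lost on leaving out *Rev-erbα-/-* ZT8 replicate 1 or 2 or *Rev-erbα-/-* ZT20 replicate 1 or 2 (adjusted p = 0.0518, 0.0809, 0.0672 and 0.095). *Psmd5* was lost in 11 of 20 alternative analyses, with adjusted p-values up to 0.135, among them those without WT ZT8 replicate 2, *Rev-erbα-/-* ZT8 replicate 1 or 2, WT ZT20 replicate 2, or *Rev-erbα-/-* ZT20 replicate 1 or 3. *Psmb5* was lower at ZT20 without overlap, the direction opposite to WT (log2 -0.39, SE 0.137, adjusted p = 0.0621, edgeR), and it passed in 5 of 20 alternative analyses, those without WT ZT8 replicate 1 or 3 among them (adjusted p = 0.0204 and 0.0333). *Psmc5*, an ATPase (log2 0.23, adjusted p = 0.068), and *Psmb7*, the trypsin-like catalytic subunit (log2 -0.16, adjusted p = 0.136), followed, and *Psmc5* passed without WT ZT20 replicate 1 or 3 (adjusted p = 0.0395 and 0.0492). Non-overlapping times were found for 15 members in WT, 6 higher and 9 lower at ZT20, against 42.3% of all genes tested (21.5% higher, 20.9% lower). In *Rev-erbα-/-* livers there were 14, 6 higher and 8 lower, against 35% of all genes (17.5% higher, 17.6% lower).

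**Figure D4:**
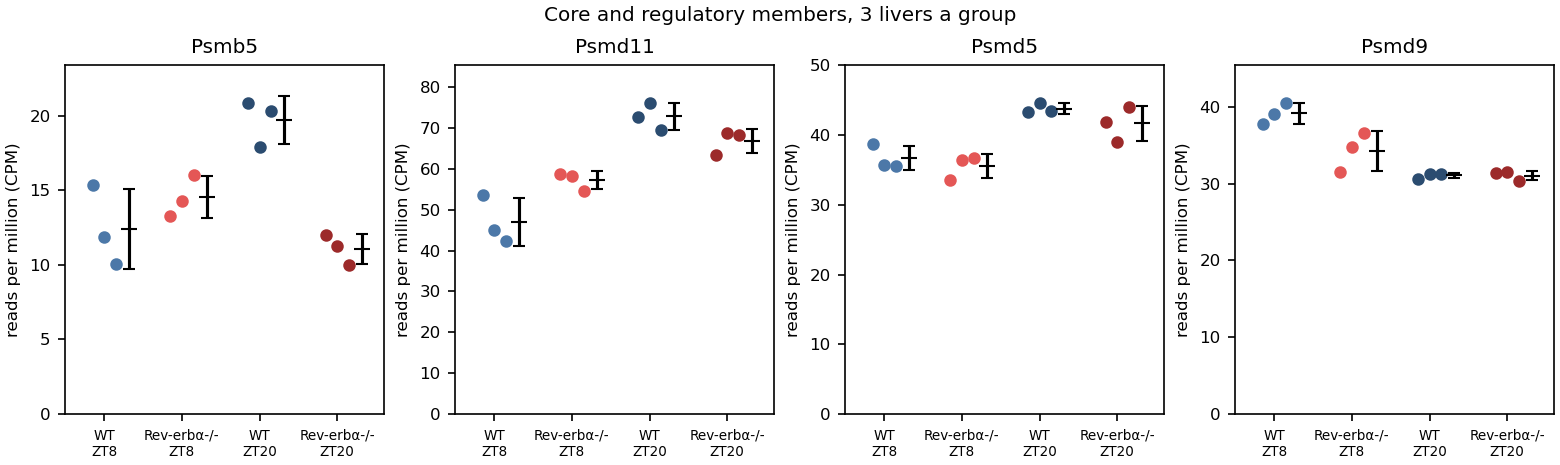
CPM of *Psmb5*, *Psmd11*, *Psmd5* and *Psmd9* in each of the 12 livers, with mean ± SD of 3 in black. *Psmb5* is at 17.9 to 20.9 CPM in WT at ZT20 and at 16.1 CPM or lower in the other 9 livers, and *Psmd11* is at 69.7 to 76.3 CPM at ZT20 and 42.4 to 53.6 CPM at ZT8 in WT, the genotype in which its difference between the times passed.

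**Figure D5:**
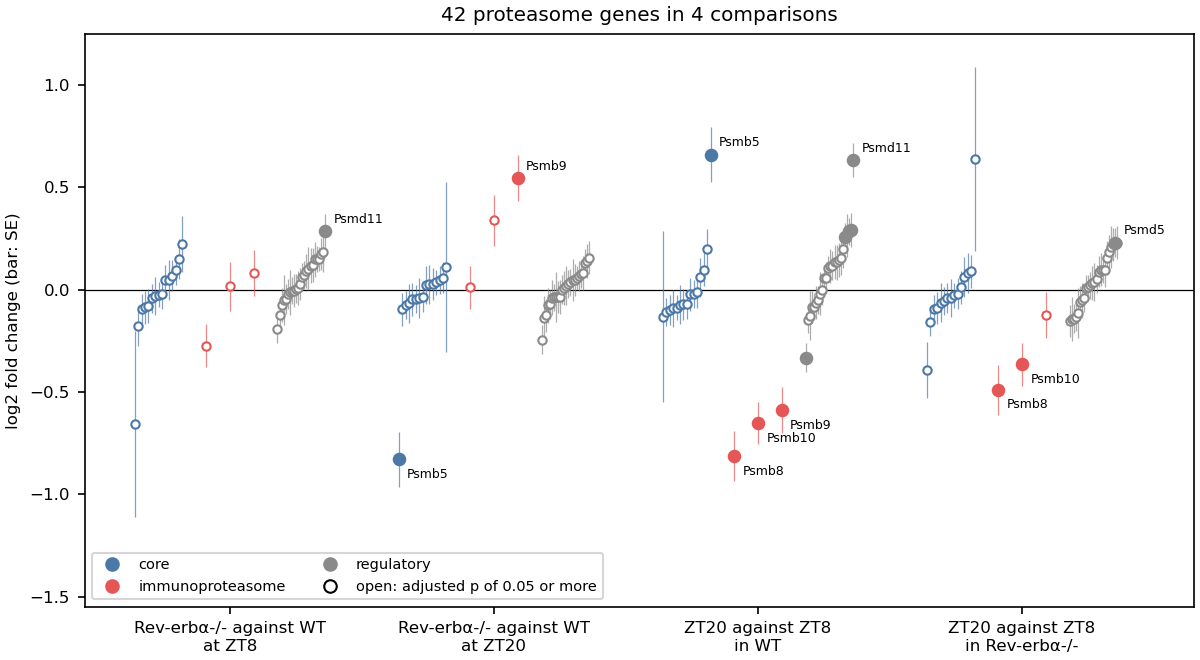
Log2 fold change of the 42 members in 4 comparisons, with SE as bars, by class. Filled points passed the adjusted p-value of 0.05 (1, 2, 9 and 3 members). Among the core and regulatory genes, *Psmb5*, *Psmd11* and the sparse *Psma8* lie farthest from zero, *Psmc2*, *Psmd5*, *Psmd7* and *Psmd9* are also filled in WT, and the immunoproteasome genes lie below zero in both comparisons of ZT20 with ZT8.

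The core genes with the next smallest adjusted p-values did not pass in any of the 5 comparisons. *Psmb3* was at 20.8, 19.5 and 16.2 CPM in WT at ZT8, 15.4, 17.4 and 17.1 CPM in *Rev-erbα-/-* at ZT8, 17.0, 19.1 and 17.6 CPM in WT at ZT20, and 17.1, 17.3 and 17.8 CPM in *Rev-erbα-/-* at ZT20. *Psmb7* was at 105.1, 96.7 and 92.8 CPM in WT at ZT8, 104.3, 111.6 and 98.5 CPM in *Rev-erbα-/-* at ZT8, 91.7, 90.8 and 90.6 CPM in WT at ZT20, and 98.0, 90.9 and 93.0 CPM in *Rev-erbα-/-* at ZT20. The genotypes overlapped for *Psmb3* at both times, while *Psmb7* was lower at ZT20 without overlap in both genotypes. *Psma6*, an alpha subunit, was at 102.0, 85.9 and 86.1 CPM in WT at ZT8, 82.5, 92.5 and 83.1 CPM in *Rev-erbα-/-* at ZT8, 98.3, 103.2 and 91.8 CPM in WT at ZT20, and 94.7, 91.0 and 88.8 CPM in *Rev-erbα-/-* at ZT20. *Psma3* was at 18.9, 15.2 and 17.3 CPM in WT at ZT8, 17.2, 19.3 and 16.7 CPM in *Rev-erbα-/-* at ZT8, 18.6, 21.5 and 18.9 CPM in WT at ZT20, and 19.6, 18.7 and 18.0 CPM in *Rev-erbα-/-* at ZT20, with a log2 difference of 0.20 between the times in WT (adjusted p = 0.149, edgeR). *Psma8* was at 0.995, 0.648 and 0.712 CPM in WT at ZT8, 0.156, 0.556 and 0.784 CPM in *Rev-erbα-/-* at ZT8, 1.02, 0.575 and 0.582 CPM in WT at ZT20, and 0.714, 0.584 and 1.07 CPM in *Rev-erbα-/-* at ZT20, and all its groups overlapped.

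Of the regulatory genes, *Psmd7* and *Psmc2* showed their highest values at ZT20. *Psmd7* was at 75.8, 71.8 and 66.1 CPM in WT at ZT8, 79.6, 79.2 and 78.4 CPM in *Rev-erbα-/-* at ZT8, 90.9, 85.5 and 84.2 CPM in WT at ZT20, and 85.9, 84.5 and 83.3 CPM in *Rev-erbα-/-* at ZT20. *Psmc2* was at 93.4, 85.6 and 77.1 CPM in WT at ZT8, 90.6, 100.7 and 86.5 CPM in *Rev-erbα-/-* at ZT8, 109.4, 102.2 and 101.9 CPM in WT at ZT20, and 107.2, 94.0 and 96.0 CPM in *Rev-erbα-/-* at ZT20. For *Psmd7* the times did not overlap in either genotype, and for *Psmc2* they did not overlap in WT. *Psmc5* was at 63.8, 64.2 and 61.5 CPM in WT at ZT8, 58.6, 67.5 and 64.4 CPM in *Rev-erbα-/-* at ZT8, 79.4, 68.5 and 63.2 CPM in WT at ZT20, and 76.9, 72.1 and 74.3 CPM in *Rev-erbα-/-* at ZT20. *Psme4* was at 194.1, 192.7 and 207.0 CPM in WT at ZT8, 208.2, 209.3 and 206.6 CPM in *Rev-erbα-/-* at ZT8, 192.3, 189.3 and 191.4 CPM in WT at ZT20, and 219.4, 204.9 and 202.4 CPM in *Rev-erbα-/-* at ZT20. The times did not overlap for *Psmc5* in *Rev-erbα-/-* livers, and for *Psme4* the genotypes did not overlap at ZT20. *Psme3*, another activator, was higher at ZT8 in the 3 *Rev-erbα-/-* livers (75.8, 79.6 and 78.2 CPM) than in the 3 WT livers (70.6 CPM at most), with a log2 difference of 0.15 (adjusted p = 0.125, edgeR). *Psme3* was also higher in the knockout without overlap at ZT20, at 78.74, 79.17 and 77.76 CPM against 77.54, 75.45 and 73.41 CPM in WT. Within WT it was higher at ZT20 than at ZT8 without overlap. Neither of these differences passed.

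The level of each immunoproteasome gene relative to the catalytic subunit it replaces was set side by side per exon length, as a description. *Psmb8* to *Psmb5* was 0.644, 1.15 and 1.34 in WT at ZT8, 0.844, 0.920 and 0.803 in *Rev-erbα-/-* at ZT8, 0.343, 0.365 and 0.357 in WT at ZT20, and 0.788, 0.829 and 0.771 in *Rev-erbα-/-* at ZT20. The WT livers at ZT20 were thus apart from the other 9 livers. *Psmb9* to *Psmb6* was 0.0543 to 0.0694 in WT at ZT20 and 0.0781 to 0.0992 in the other 3 groups. *Psmb10* to *Psmb7* was 0.300 and 0.295 in the WT ZT8 replicates 2 and 3. It was 0.165 to 0.212 in all other livers, with WT ZT8 replicate 1 (0.200) among them. The 2 highest ratios of *Psmb8* to *Psmb5* (1.15 and 1.34) were also those of the WT ZT8 replicates 2 and 3. *Psmb5* shares 36.8% of its words with other genes, so its ratio has no absolute meaning.

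The PA28 activator genes are known to be induced by interferon along with the immunoproteasome, and neither *Psme1* nor *Psme2* passed in any of the 5 comparisons. *Psme1* was at 63.2, 61.3 and 62.6 CPM in WT and 54.0, 60.1 and 57.7 CPM in *Rev-erbα-/-* at ZT8, and at 59.2, 56.6 and 53.2 CPM and 57.9, 58.1 and 62.1 CPM at ZT20. The log2 difference of *Psme1* between the times in WT was -0.15 (SE 0.0667, adjusted p = 0.116, edgeR), and it passed with library size alone (log2 -0.22, adjusted p = 0.025). *Psme2* was at 8.28, 8.72 and 10.1 CPM in WT and 8.88, 8.56 and 8.67 CPM in *Rev-erbα-/-* at ZT8, and at 9.40, 8.01 and 7.34 CPM and 8.40, 7.25 and 8.49 CPM at ZT20. Its log2 differences ran from -0.13 to -0.01 over the 5 comparisons. With reads of *Psme2* and *Psme2b* summed, an alternative chosen after seeing the data, the sum was lower at ZT20 in WT (log2 -0.19, adjusted p = 0.0333).

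Other genes of the pathway were taken from lists. In the test of the interaction, 2 of 14 genes of the interferon response and antigen presentation passed as lower and 0 as higher. Of 13 genes that control proteasome transcription, 1 passed as higher and 1 as lower, and of 13 genes of ubiquitin supply and shuttling 1 passed as higher. Of all genes tested, 3.05% passed as higher and 2.83% as lower (edgeR). This test rests in part on the WT ZT8 replicates 2 and 3. Of 14 genes of the interferon response and antigen presentation, 2 were higher and 3 lower at ZT20 than at ZT8 in WT, where 13.8% of all genes tested were higher and 13.9% lower, with a median log2 difference of -0.01 against -0.65 for the 3 immunoproteasome genes. *Tap2*, a subunit of the peptide transporter next to *Psmb8*, fell (log2 -0.45, adjusted p = 0.000638), as did *Tapbp*, the tapasin of the peptide loading complex (log2 -0.29, adjusted p = 0.00878), and *Nlrc5*, a transactivator of MHC class I genes (log2 -0.38, adjusted p = 0.0369). The MHC class I genes *H2-K1* (log2 0.40, adjusted p = 0.00596) and *H2-D1* (log2 0.31, adjusted p = 0.0169) rose. *Tap1*, which overlaps *Psmb9* over 212 exon bases, did not pass (log2 0.02, adjusted p = 0.952), and neither did the interferon-induced factor *Irf1* (log2 -0.07, adjusted p = 0.605). Without the WT ZT8 replicates 2 and 3, *Tap2* (log2 -0.39, adjusted p = 0.045) and *H2-D1* (log2 0.45, adjusted p = 0.0208) passed, and *Tapbp*, *Nlrc5* and *H2-K1* did not (adjusted p = 0.443, 0.385 and 0.105). Of these 14 genes, at ZT8 *B2m*, the light chain of MHC class I, was higher (log2 0.42, adjusted p = 0.0096) and *Tapbp* lower (log2 -0.30, adjusted p = 0.021) in *Rev-erbα-/-* livers, neither of which passed without the same replicates, and none of the 14 passed between genotypes at ZT20 (edgeR) or between times in *Rev-erbα-/-* livers.

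Of 13 genes that control proteasome transcription, *Maff*, a small Maf partner of the NRF factors, was lower in *Rev-erbα-/-* livers at ZT8, at 3.70, 4.24 and 4.07 CPM in WT and 1.04, 0.667 and 1.03 CPM in *Rev-erbα-/-* livers (log2 -2.12, adjusted p = 1.89e-05, edgeR). *Maff* also passed without the WT ZT8 replicates 2 and 3 (log2 -2.01, adjusted p = 0.00207). *Nfe2l1*, which encodes the factor known to restore proteasome gene expression when the protease is inhibited, did not pass in any of the 5 comparisons (log2 -0.21 to 0.12). *Nfe2l2* (*Nrf2*) did not pass in the fit of all libraries, but its WT ZT8 values were 107.8, 77.3 and 64.6 CPM, and with replicates 2 and 3 left out it was lower in *Rev-erbα-/-* livers (log2 -0.58, adjusted p = 0.00607). Between the times in WT, *Mafk* fell (log2 -0.53, adjusted p = 0.00414) and *Nfya* rose (log2 0.23, adjusted p = 0.0406), and *Maff* fell (log2 -1.51, adjusted p = 4.52e-05), 3 of 13 genes where 27.7% of all genes tested passed. Without the WT ZT8 replicates 2 and 3, *Mafk* (adjusted p = 0.0901) and *Nfya* (adjusted p = 0.32) did not pass, *Maff* did (log2 -1.41, adjusted p = 0.00424), and *Nfe2l2* was lower at ZT20 (log2 -0.56, adjusted p = 0.00207). In *Rev-erbα-/-* livers *Nfyb* rose (log2 0.60, adjusted p = 0.00122) and *Mafk* (log2 -0.51, adjusted p = 0.00933) and *Ddi2*, the protease that activates NRF1 (log2 -0.36, adjusted p = 0.00376), fell.

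Of 13 genes of ubiquitin supply and shuttling, 4 rose and none fell from ZT8 to ZT20 in WT, against 13.8% and 13.9% of all genes tested. They were *Ubqln1* (log2 0.55, adjusted p = 0.000151) and *Ubqln4* (log2 0.48, adjusted p = 0.000318), which carry ubiquitinated proteins to the proteasome, *Uba6*, a ubiquitin-activating enzyme (log2 0.63, adjusted p = 0.00392), and *Rad23b*, another shuttle (log2 0.35, adjusted p = 0.00594). *Ubqln1* and *Ubqln4* passed without the WT ZT8 replicates 2 and 3 (adjusted p = 0.0226 and 0.0147), and *Uba6* and *Rad23b* did not (adjusted p = 0.199 and 0.0842). In *Rev-erbα-/-* livers *Ubqln4* (log2 0.41, adjusted p = 0.0023) and *Rad23b* (log2 0.42, adjusted p = 0.00329) rose. At ZT8, *Ubqln1* was higher (log2 0.36, adjusted p = 0.0133) and the polyubiquitin gene *Ubb* lower (log2 -0.33, adjusted p = 0.0494) in *Rev-erbα-/-* livers, neither of which passed without the same replicates. Of 16 assembly factors and bound partners, *Zfand5*, a proteasome activator (log2 0.54, adjusted p = 0.000414), rose and *Psmf1*, an inhibitor of the core particle (log2 -0.28, adjusted p = 0.0474), fell between the times in WT, and none passed between the genotypes at either time or between the times in *Rev-erbα-/-* livers (edgeR). *Psmf1* also passed without the WT ZT8 replicates 2 and 3 (log2 -0.41, adjusted p = 0.0486), and *Zfand5* did not (log2 0.39, adjusted p = 0.0554). *Pomp*, the chaperone of core assembly, was between 96.0 and 118.6 CPM in all 12 livers.

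Immunoproteasome genes are highly expressed by leukocytes, so markers of other cells were read beside them. In these bulk samples, fewer cells of a type and less RNA per cell cannot be told apart. The 14 leukocyte and Kupffer cell markers summed to 436 to 556 CPM in WT at ZT8, 376 to 401 in *Rev-erbα-/-* at ZT8, 395 to 551 in WT at ZT20 and 356 to 525 CPM in *Rev-erbα-/-* at ZT20. None of the 14 was at 0 reads in any library, and 13 were tested. In *Rev-erbα-/-* against WT, 1 had a positive and 12 a negative log2 difference at ZT8 (median -0.395), and 4 and 9 at ZT20 (median -0.12). Without the WT ZT8 replicates 2 and 3, these were 2 and 11 at ZT8 (median -0.16). In the interaction 3 were positive and 10 negative, and 1 passed as lower. Between the times, 12 were positive and 1 negative in *Rev-erbα-/-* livers (median 0.26), and 7 were positive and 6 negative in WT. The macrophage marker *Cd68* was lower at ZT20 (log2 -0.58, adjusted p = 0.00422) and lost its call without the WT ZT8 replicates 2 and 3 (log2 -0.33, adjusted p = 0.261). The other macrophage genes *Csf1r* (log2 -0.42, adjusted p = 0.0632) and *Emr1* (log2 -0.37, adjusted p = 0.134), and the leukocyte gene *Laptm5* (log2 -0.38, adjusted p = 0.116), had negative values that did not pass (edgeR). *Ptprc* (log2 0.19) and the MHC class II genes *H2-Aa* (log2 0.16) and *H2-Ab1* (log2 0.15) had positive ones that did not pass either. Without the same replicates, the values of *Csf1r*, *Emr1* and *Laptm5* were -0.11, 0.05 and -0.07. The 8 hepatocyte markers summed to 55100 to 76200 CPM in WT at ZT8 and 98600 to 109000 CPM in WT at ZT20, with 5 of 8 higher at ZT20 where 13.8% of all genes were (1 of 8, *Tat*, without the WT ZT8 replicates 2 and 3), and to 63500 to 90500 and 87600 to 95900 CPM in *Rev-erbα-/-* livers. The 11 markers of endothelial, stellate and bile duct cells summed to 433 to 501 CPM over all libraries, with 1 higher and 1 lower at ZT20 in WT, and none without these replicates (edgeR). The 8 acute-phase genes summed to 2630 to 23300 CPM in WT at ZT8 and to 2170 to 3210 CPM in the other groups, and 8 of 8 were lower in *Rev-erbα-/-* livers at ZT8 with all libraries and 0 of 8 without the WT ZT8 replicates 2 and 3 (median log2 -4.64 and -0.42, edgeR). Alignments that were not unique numbered 1.76 to 3.28 per counted read in WT at ZT8, 2.29 to 2.72 in *Rev-erbα-/-* at ZT8, 1.56 to 1.67 in WT at ZT20 and 1.24 to 1.56 in *Rev-erbα-/-* at ZT20. The part of these values in the differences between the times was not tested.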

How the data were processed

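Poly(A) RNA of 12 mouse livers was sequenced on an Illumina instrument with reads of up to 75 bases. Per the labels and the study's methods, TopHat was used by the authors for mapping to mm10, and reads with a single placement were assigned to symbols by HTSeq (union mode, minimum alignment quality 10, strand ignored). The deposited values are raw counts for 38926 symbols, neither normalized nor pooled. The authors used DESeq2 1.6.3 for their own tests, which were not used here. The annotation used for counting was a mouse GTF file, whose release is not given in the sources used here. Reads that map to several places were left out by the authors, so genes with near-identical copies are counted in part.

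Groups, times and replicate numbers came from the sample labels. Genes were filtered with filterByExpr (14488 remained, all 42 members among them), scaled by TMM and fitted with edgeR 4.0.16 (R 4.3.3) as 4 group means over 12 samples with robust quasi-likelihood tests. P-values were adjusted by Benjamini-Hochberg over all tested genes, with a threshold of 0.05. Intervals are 95% intervals from the same fit. With 17641809 to 26060192 counted reads per library, counting error is small for all members but *Psma8*. The intervals include the spread between replicates, while the floors of 3 counts cover counting error only. The 5 summary lines of each count file stayed out of library sizes.

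Exon lengths and 75-base words came from GENCODE M21 (GRCm38, the build of the counts), with lengths from its basic set, and promoters from RefSeq. Values in every sample are given for the immunoproteasome genes, *Psme1*, *Psme2* and, per comparison, the 2 core and 2 regulatory genes with the smallest adjusted p, and genes of the other lists are named where they passed, at most 6 a list. *Psmc2*, *Psmd7* and *Psme3* were added after their values were seen. *Tap1*, *Irf1*, *Csf1r*, *Emr1*, *Laptm5*, *Ptprc*, *H2-Aa*, *H2-Ab1*, *Nfe2l1*, *Nfe2l2* and *Pomp* were named after their values were seen. The members and the lists were chosen with earlier results of these data known. Alternatives were RLE scaling, library size alone, other filters, DESeq2 1.42.0, a fit of 6 samples only, a block for replicate number, a threshold of 0.01, and leaving out each sample. The fit without WT ZT8 replicates 2 and 3 and the sum of *Psme2* and *Psme2b* were added after seeing the data.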

Additional observations from a re-analysis of the deposited data

Results flagged for a closer look

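*Psmb5*, which encodes the chymotrypsin-like catalytic subunit of the constitutive proteasome, was the only one of the 42 proteasome genes whose genotype effect differed between the times of day past the threshold (edgeR, 12 libraries). The effect of *Rev-erbα* loss was a log2 difference of 0.22 at ZT8 and of -0.83 at ZT20, and the difference between them was 1.05 (SE 0.192, adjusted p = 0.0041, edgeR interaction test). It was 0.92 to 1.23 over the 19 alternative analyses, and 0.74 without the WT ZT8 replicates 2 and 3. In WT livers the values at ZT20 (17.9 to 20.9 CPM) lay above those at ZT8 (10.1 to 15.4 CPM), and in *Rev-erbα-/-* livers those at ZT20 (10.0 to 12.0 CPM) lay under those at ZT8 (13.3 to 16.1 CPM). Of the 75-base words of *Psmb5*, 36.8% are in other genes, and 12.1% of its annotated exon bases overlap *Mir686*. The part of this in the difference was not tested.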

How the results depend on the processing

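Counts of proteasome genes past the threshold moved as follows. For *Rev-erbα-/-* against WT at ZT8 the count of 1 became 0 with library size alone, with only the 6 samples compared, at an adjusted p of 0.01 and without the WT ZT8 replicates 2 and 3 (chosen after seeing the data; 6 members had an unadjusted p under 0.05 in the edgeR fit of all libraries, and DESeq2 called 1). For *Rev-erbα-/-* against WT at ZT20 the count of 2 became 1 at an adjusted p of 0.01, and DESeq2 gave 3. For the interaction, the count of 1 became 2 in DESeq2. For ZT20 against ZT8 in WT the count of 9 became 3 without the WT ZT8 replicates 2 and 3. For ZT20 against ZT8 in *Rev-erbα-/-* livers the count of 3 became 0 at an adjusted p of 0.01, where the edgeR fit had 8 members at an unadjusted p under 0.05 and DESeq2 called 3. Leaving out each library in turn gave 0 to 3 genes at ZT8, 1 to 2 at ZT20, 1 to 3 for the interaction, 7 to 10 between the times in WT and 0 to 5 between the times in *Rev-erbα-/-* livers. The highest counts, 3, 3 and 5, came without WT ZT8 replicate 1, and the 0 between the times in *Rev-erbα-/-* livers came without *Rev-erbα-/-* ZT8 replicate 2. That count was 1 without *Rev-erbα-/-* ZT8 replicate 1 or *Rev-erbα-/-* ZT20 replicate 1 or 3. The cause was not tested.

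Signs turned only in differences that did not pass. At ZT8 the log2 difference of *Psmb5* was -0.0819 and of *Psmb10* 0.0132 without the WT ZT8 replicates 2 and 3, that of *Psmb8* was -0.0139 with library size alone and -0.127 to 0.0934 on leaving out single libraries, and that of *Psme2* was 0.068 without the same pair and -0.114 to 0.0358 without single libraries. At ZT20, leaving out single libraries gave -0.0394 to 0.0536 for *Psmb10* and -0.107 to 0.0674 for *Psme2*, which was 0.00179 with *Psme2b* added. The interaction of *Psme2* was 0.1 without the WT pair and -0.116 to 0.0725 without single libraries. With library size alone the split between the times was 3 higher and 5 lower in WT and 0 higher and 3 lower in *Rev-erbα-/-* livers.

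Replicate numbers did not pair the samples. Deviations of same-numbered samples had a mean correlation of -0.0144 over 18 pairs (-0.0832 to 0.0738), and 1 of 12 samples was closest to its own number. With the replicate number as a block, 1, 2, 1, 10 and 2 members passed in the 5 comparisons, where 1, 2, 1, 9 and 3 passed without it.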
